A study of Mus musculus with 12 samples.

Results

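Back skin of the newborn mouse matures quickly in the first days after birth, while its first coat of hair is being made. The comparison described here set 3 arrays labelled P5 back (postnatal day 5) against 3 arrays labelled P1 back (day 1). These are 6 of the 12 Affymetrix MG430.2A arrays of the series, and the other 6 are labelled tail, 3 of each age. All 45037 probe sets that are not array controls were compared, always as P5 minus P1. The mice were C57Bl6/CBA F1, with no transgene or treatment. The methods describe triplicate mice for P1 and do not describe the P5 mice. An array was counted as a separate mouse, and p-values measure only the spread between these samples. Whether the ages were processed together is not given in the sources used here, so age and any processing batch cannot be told apart. For P1, back skin was incubated in dispase-trypsin and tail skin in EDTA before the dermis was peeled off the epidermis with forceps. The dermis was then digested to single cells and lysed. How P5 skin was prepared is not given in the sources used here. The wounding experiments that the study is about were not analysed here.

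Dermis is a connective tissue of fibroblasts, collagen and vessels. It also holds what grows down into it or lies in it: hair follicles with their dermal papilla, sebaceous glands, melanocytes, nerves and, beneath, the layer of dermal white adipocytes. A follicle is built by signals between epidermis and dermal papilla, among them Wnt, hedgehog, BMP and FGF ligands. Once the follicle is formed, the cells above the papilla fill with hair keratins and keratin-associated proteins, and an inner root sheath shapes the growing hair. The study's question is why skin loses the ability to form new follicles after birth. It treats Lrig1, Dpp4 and Prdm1 as markers of upper (papillary) fibroblasts and Dlk1 as a marker of lower (reticular) ones.

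The deposited values are log2 expression values after RMA, and the middle of the 12 arrays is set to 0 for every probe set. A value of 1 is therefore 2-fold above that probe set's middle array, and differences between arrays can be read but levels cannot. The column medians lay between -0.02 and 0.01. Genes are the averages of the probe sets that carry 1 gene symbol, 18193 in all, and a gene is said to rise or fall only where its adjusted p was under 0.05 by limma. Where a named call was lost when 1 of the 6 arrays was left out, this is stated, and the other named calls held in all 6 such fits.

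The site labels were checked first, because a Hox gene's place in its cluster follows body position. Of 14 measured posterior Hox genes, 10 were higher in the arrays labelled back than in those labelled tail at P1 and 10 at P5, and none was lower, where 3.97% and 6.91% of all genes differed in either direction. Hoxd11, a posterior gene, differed by -3.09 at P1 (labelled tail minus labelled back, log2). Of 19 anterior and middle Hox genes, 6 at P1 and 8 at P5 were higher in the arrays labelled tail and none in those labelled back. Of 26 adipocyte genes, 14 and 8 were higher in the arrays labelled tail and none in those labelled back. The Hox order goes against what the labels would give at both ages. From P1 arrays, the paper reports fat metabolism terms as more represented in back dermis and relates this to tail skin lacking dermal fat. At P1 the adipocyte genes ran the other way under the deposited labels. From which site the arrays labelled back came cannot be settled from the files, and they may hold tail dermis, so the groups are called arrays labelled back and labelled tail throughout. Within the arrays labelled back the Hox lists moved little between the ages, where 4.25% of all genes were called in either direction. The median P5 minus P1 difference of the posterior list was -0.05, with 1 gene up (Hoxc13, 0.80) and 1 down (Hoxa11, -0.75), and none of the anterior and middle Hox genes was called by limma (3 at an unadjusted p under 0.05). Hoxc8, for instance, differed by 0.00 with a standard error of 0.14. The calls of Hoxa11 (P1 back replicates 1 and 6 and P5 back replicates 1 and 3, adjusted p 0.054 to 0.079) and Hoxc13 (P1 back replicate 5, 0.051) were lost without the arrays in brackets.

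The 6 arrays did not all hold the same tissues. Col2a1, the main collagen of cartilage, was at 5.38, 0.05 and 5.23 in P1 back replicates 1, 5 and 6, and at -0.04, 0.38 and 3.77 in P5 back replicates 1, 2 and 3. Myh3, an embryonic muscle myosin, was at 2.06, -3.17 and 2.55 and at -2.87, -2.79 and 2.26 in the same order. P1 back replicates 1 and 6 and P5 back replicate 3 thus stood apart at both genes. The median of 26 cartilage genes was 1.15, 0.90 and 0.36 in these 3 arrays and between -0.01 and 0.04 in the other 3, and 46 skeletal muscle genes had medians of 0.22, 0.44 and 0.81 against -0.36 to -0.24. With 2 such arrays at P1 and 1 at P5, the cartilage list had a median age difference of -0.66, which was -0.00 once the 3 arrays were left out. Only Sox6, a transcription factor of cartilage and of hair follicle mesenchyme, passed the test (-1.12, adjusted p = 0.00038), and it lay between 1.06 and 1.26 in all 3 P1 arrays and between -0.01 and 0.11 at P5. Without P1 back replicate 5, 10 cartilage genes were called lower. No skeletal muscle or myogenic gene was called by limma, and none had an unadjusted p under 0.05, although 1 muscle gene was called lower without P5 back replicate 3.

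In all, 773 of 18193 genes (4.25%) differed between the ages, 404 higher at P5 (2.22%) and 369 lower (2.03%). The median difference over all genes was 0.01. By probe set, 1035 of 45037 (2.30%) passed, 560 higher and 475 lower, and 704 (1.56%) differed by at least 2-fold with no test, as did 393 genes (2.16%). For each of the 773 genes the 3 arrays of one age lay above the 3 of the other, as they did for 28.0% of all genes. Leaving out 1 of the 6 arrays gave 379 to 529 called genes, and 319 genes (193 higher and 126 lower) were called in all 6 of these fits. The count fell most without P5 back replicate 2 (379) and P1 back replicate 6 (391). It was 447 and 483 for P1 back replicates 5 and 1 and 471 for P5 back replicate 3. Without the 3 arrays rich in cartilage and muscle genes, which leaves P1 back replicate 5 against P5 back replicates 1 and 2, only 17 genes were called. There 772 of the 773 differences kept at least 50% of their size, in arrays that are part of the full comparison. Their sign could not change, since the ages do not overlap in any of these genes.

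**Figure D1:**
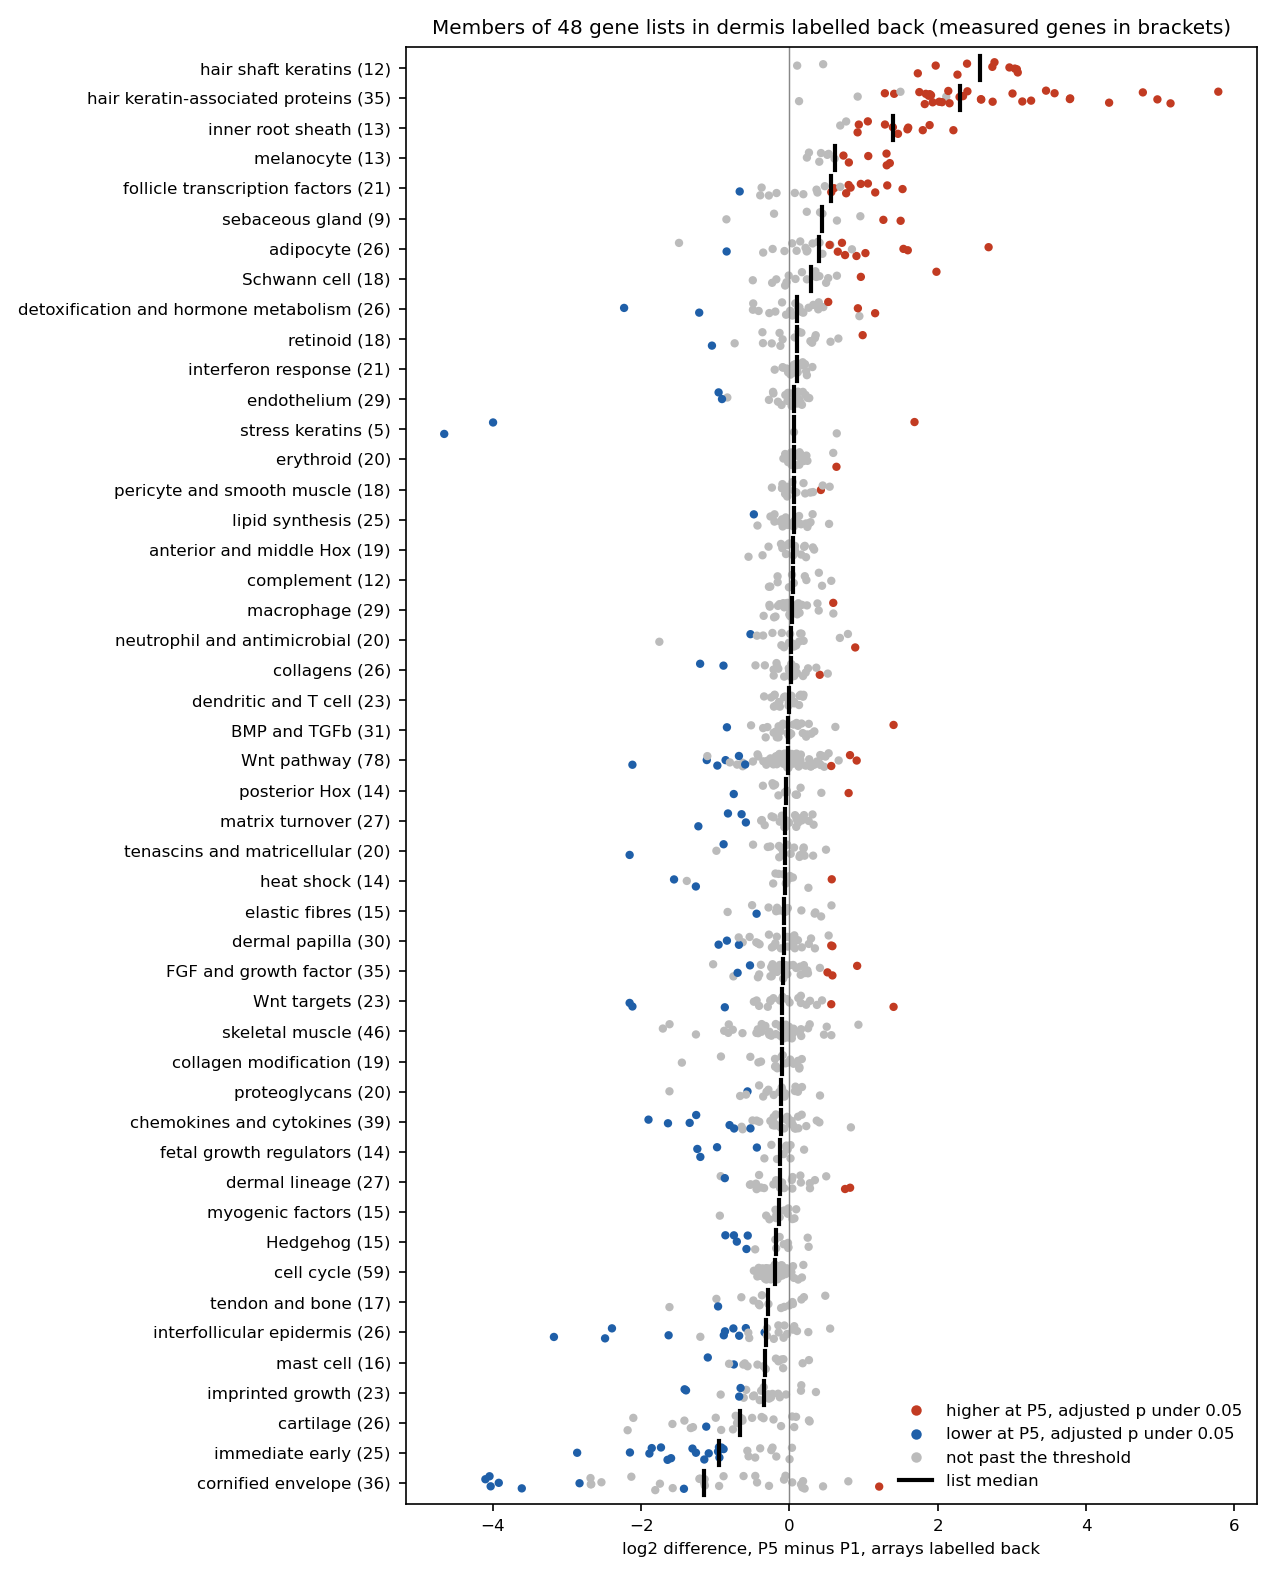
Log2 difference between the ages (P5 minus P1, arrays labelled back, 3 arrays each) for the measured members of 48 gene lists, ordered by list median. Points are genes, red and blue where the limma adjusted p is under 0.05, and black bars are list medians. Hair shaft, keratin-associated protein and inner root sheath genes lie at the top, and cornified envelope and immediate early genes at the bottom.

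The genes of the hair itself rose together between P1 and P5. Of 12 hair shaft keratins, the filaments of the hair fibre, 10 rose and none fell, with a list median of 2.57 against 0.01 for all genes. Of 35 measured keratin-associated proteins (of 52 listed), which pack and crosslink those filaments, 31 rose and none fell, with a median of 2.29 and differences from 0.13 to 5.78. Of 13 genes of the inner root sheath, 11 rose and none fell, with a median of 1.40. The share called higher over all genes was 2.22%.

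Krtap19-2 had the largest difference of any gene. It was at -2.82, -1.35 and -1.87 in the P1 arrays and at 2.21, 4.97 and 4.14 in the P5 arrays, which is 5.78 higher on the log2 scale (standard error 0.81, adjusted p = 0.0014). Its neighbours on chromosome 16 followed, with Krtap19-3 at 5.14, Krtap19-5 at 4.96 and Krtap16-3 at 4.31. The family holds near-identical copies, whose probes may read each other's RNA, so single members are uncertain. Among the shaft keratins, Krt31 was at -1.02, -0.77 and -0.59 at P1 and at 1.94, 2.56 and 2.35 at P5, a difference of 3.08 (standard error 0.30, adjusted p = 0.00020), and Krt82, a keratin of the hair cuticle, differed by 2.97. The P5 arrays were above the P1 arrays for both keratins and for 34 of the 35 keratin-associated protein genes. This held for 14.4% of all genes. Within P5, replicate 1 was the lowest for each of the named Krtap genes and for Krt31. With 1 array left out, 21 to 31 keratin-associated protein genes were called, while the shaft keratin count was 10 in all 6 fits.

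The inner root sheath is the mould around the hair. Krt71, a keratin of this sheath, was at -0.99, -0.89 and -0.87 at P1 and at 0.43, 0.90 and 0.73 at P5, a difference of 1.60 (standard error 0.21, adjusted p = 0.00092). Tchh, which encodes trichohyalin, a matrix protein of the sheath, differed by 1.46, its relative Tchhl1 by 2.21, Krt72 by 1.80 and Padi3, which modifies trichohyalin, by 1.59. Crym rose by 1.89. The 3 arrays of P5 were above those of P1 for all 13 sheath genes, as for 14.4% of all genes. The count of 11 called genes did not move when any array was left out. Krt75, a keratin of the companion layer next to the sheath, rose by 1.69.

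Promoters of some hair genes are shown because these members moved together. Each of those shown holds TATAAA near the start site, which not all hair genes do. Krt71, of the inner root sheath, is not among the genes counted below. Each line gives the 150 bases before the RefSeq start (GRCm38.p6, on the gene's strand, 5′ to 3′), with TATAAA on either strand in capitals. They lie on the minus strand at chr16:88962874-88963023 (Krtap16-3), chr16:89487953-89488102 (Krtap8-1), chr11:100050552-100050701 (Krt31) and chr15:101743098-101743247 (Krt71).
Krtap16-3: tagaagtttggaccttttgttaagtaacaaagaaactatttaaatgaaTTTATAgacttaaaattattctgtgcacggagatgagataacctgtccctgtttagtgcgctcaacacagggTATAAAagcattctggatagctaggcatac
Krtap8-1: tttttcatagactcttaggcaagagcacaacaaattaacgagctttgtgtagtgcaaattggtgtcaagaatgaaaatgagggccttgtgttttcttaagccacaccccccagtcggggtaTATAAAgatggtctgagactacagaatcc
Krt31: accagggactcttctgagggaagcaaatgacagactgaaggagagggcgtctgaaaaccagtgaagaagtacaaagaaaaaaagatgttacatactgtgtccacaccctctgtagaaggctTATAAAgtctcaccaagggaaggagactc
Krt71: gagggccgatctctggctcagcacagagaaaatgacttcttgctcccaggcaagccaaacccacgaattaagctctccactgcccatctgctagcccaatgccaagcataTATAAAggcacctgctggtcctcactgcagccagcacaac

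In these 4 promoters the TATAAA nearest the start began 30, 29, 29 and 40 bases before it. RefSeq promoters were at hand for 34 of the 41 called shaft keratin and keratin-associated protein genes. Of these, 27 (79.4%) held TATAAA on either strand in the 250 bases before and 50 after the start, against 13.6% of all 32851 promoters. On the gene's own strand and starting 40 to 20 bases before the start, 19 of 34 held it (55.9%), against 1.99% of all promoters. The letters were chosen after the values were seen, the genes of these clusters share sequence, and a match is a description and not a test of any factor.

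Of 21 measured transcription factors of the follicle, 10 rose and 1 fell, with a median of 0.56. The shares called over all genes were 2.22% higher and 2.03% lower. Elf5 rose by 1.53, Dlx4 by 1.32, Dlx3, which is needed for hair shaft formation, by 1.16, Sox21, a factor of the hair cuticle, by 0.96, and Vdr, the vitamin D receptor, by 0.83. Foxn1, the factor behind the nude mouse, was at -0.34, -0.10 and -0.14 at P1 and at 0.53, 1.17 and 0.90 at P5 (difference 1.06, adjusted p = 0.022). Its arrays did not overlap, as held for every called gene, and the call was lost without any array other than P5 back replicate 1 (adjusted p 0.058 to 0.12). Msx2 (0.77) and Irx5 (-0.67) were also called, Msx2 not without P1 back replicates 1 or 6 or any P5 array (0.057 to 0.14) and Irx5 not without P1 back replicate 5 or P5 back replicates 2 or 3 (0.050 to 0.066). With 1 array left out, 6 to 8 factors were higher, the 6 without P1 back replicate 1, 5 or 6 or P5 back replicate 2 or 3.

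Single genes outside the lists also rose. Spink12, which encodes a protease inhibitor of the Kazal family, was at -0.66, -0.21 and -0.07 at P1 and at 4.62, 5.02 and 5.08 at P5. The difference of 5.22 (standard error 0.17, adjusted p = 5.6e-09) is 37.2-fold. Selenbp1, a selenium-binding protein gene, rose by 2.78, and Cldn8, a tight junction gene, by 2.34. All 3 were as high without the 3 arrays rich in cartilage and muscle genes, at 5.03, 2.69 and 2.38.

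**Figure D2:**
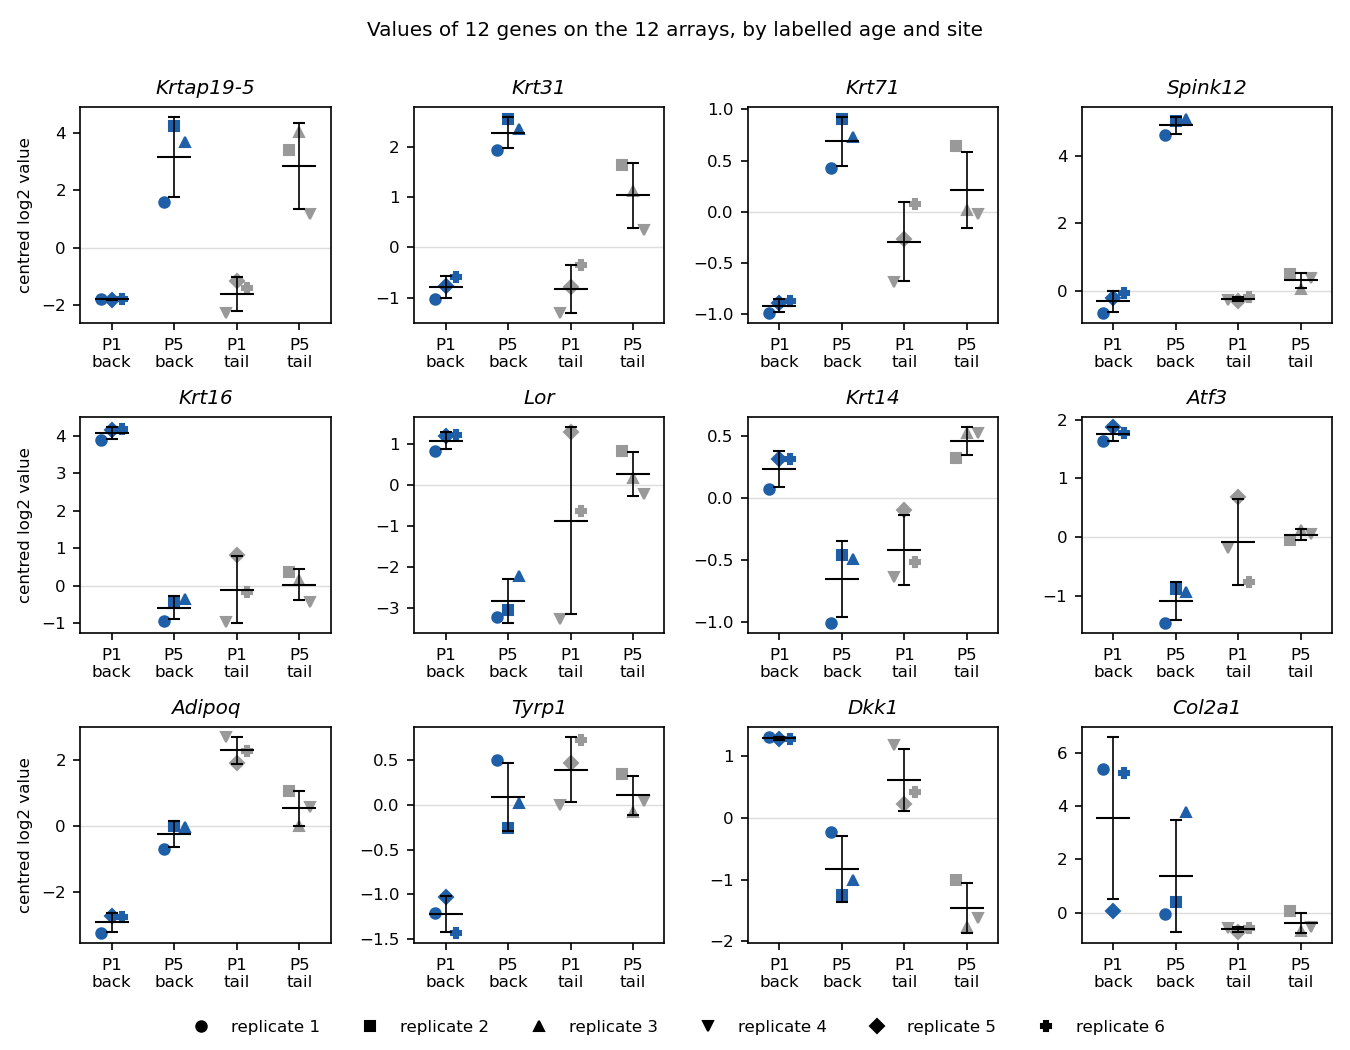
Centred log2 values (vertical axis, log2 relative to each gene's middle array) of 12 genes on the 12 arrays, arrays labelled back in blue and labelled tail in grey, with the symbol giving the replicate number and bars the mean and SD of 3 arrays. Krt31, Krt71 and Spink12 are higher in every P5 array labelled back than at P1, Krt16, Lor, Krt14, Atf3 and Dkk1 are lower, and Col2a1 is above 3 in P1 back replicates 1 and 6 and P5 back replicate 3 alone.

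Genes of the epidermis between the follicles went the other way. Of 26 interfollicular epidermis genes 10 fell and none rose, with a median of -0.32, where 2.03% of all genes were called lower. Of 36 genes of the cornified envelope, the dead outer layer, 7 fell and 1 rose, with a median of -1.15. At P1 the dermis had been peeled from the epidermis before lysis, and how this was done at P5 is not given. In bulk RNA, fewer cells of a type and less RNA per cell cannot be told apart. The list medians in P1 back replicates 1, 5 and 6 and P5 back replicates 1, 2 and 3 were 0.07, 0.21, 0.24, -0.27, -0.01 and -0.14 for interfollicular epidermis and 0.13, 0.36, 0.11, -0.80, -0.43 and -0.60 for the cornified envelope.

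Krt2, a keratin of the upper living layers, was at 5.32, 5.66 and 5.64 at P1 and at 1.56, 2.86 and 2.67 at P5 (difference -3.17, standard error 0.28, adjusted p = 0.00011). Krt14, the keratin of the basal layer, changed less, from 0.07, 0.32 and 0.32 to -1.01, -0.46 and -0.49 (difference -0.88, adjusted p = 0.0093). Neither gene had overlapping ages, as held for every called gene. The probe sets averaged for Krt14 differed by -1.27, -1.13 and -0.26, the last not called (limma adjusted p = 0.86). Col17a1, a collagen that anchors basal cells, fell by 1.20. Among the keratins of differentiating cells, Krt1 differed by -2.49 and Krt10 by -1.63, and among envelope genes Lor, which encodes loricrin, by -3.92 and Flg, which encodes filaggrin, by -3.61. The calls of these 4 genes depended on single arrays. They were lost without P1 back replicate 6 or P5 back replicates 1 or 2 for each of the 4, with adjusted p-values of 0.055 to 0.13. It was also lost without P1 back replicates 1 and 5 for Krt1 and Flg (0.067 to 0.092) and without P1 back replicate 5 for Krt10 (0.052).

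More stable were genes that rise in stressed or barrier epidermis. Krt16, a keratin of wounded and hyperproliferative epidermis, was at 3.88, 4.17 and 4.17 at P1 and at -0.93, -0.45 and -0.36 at P5, a difference of -4.65 (standard error 0.35, adjusted p = 3.6e-05), or 25.2-fold. Krt6b was at 2.47, 4.32 and 4.31 and then at -0.26, -0.29 and -0.33. Sprr2d differed by -4.03, Serpinb12, a protease inhibitor gene, by -4.14 and Alox12b, a lipoxygenase of the skin barrier, by -3.28. Sprr1b differed by -4.10, with an adjusted p of 0.051 without P1 back replicate 6, and Krt14 was at 0.0502 there. Not every gene of this kind fell. Sprr1a rose by 1.21, and Krt6a (0.64, adjusted p = 0.31) and Krt17 (0.06, adjusted p = 0.94), which follicles also express, did not pass. Leaving out P1 back replicate 5 or 6 or P5 back replicate 1 or 2 gave 3, 2, 3 and 4 interfollicular genes called lower and 4, 2, 3 and 3 envelope genes. Through the spread that all 12 arrays share, it was 17 and 21 without P1 tail replicates 4 and 5.

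Immediate early genes, which cells switch on within minutes of a stimulus, were lower at P5. Of 25, 16 fell and none rose, with a median of -0.95, where 2.03% of all genes were called lower. For 22 of them all P5 arrays were below all P1 arrays, as for 13.6% of all genes. Atf3 was at 1.63, 1.87 and 1.78 at P1 and at -1.47, -0.89 and -0.94 at P5 (difference -2.86, standard error 0.28, adjusted p = 0.00020). Fosb was at 1.11, 1.24 and 1.19 and then at -1.20, -0.84 and -0.86 (difference -2.15). The ages were far apart at both genes and P5 back replicate 1 was the lowest array. The AP-1 genes Fosl1 (-1.89), Fos (-1.64) and Jun (-1.15), the nuclear receptors Nr4a1 (-1.86) and Nr4a3 (-1.31), the growth arrest gene Btg2 (-1.73), the phosphatase gene Dusp1 (-1.60) and the zinc finger gene Egr1 (-0.96) fell as well. With 1 array left out 12 to 14 of the 25 were lower.

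Related groups moved in part, where 2.22% of all genes were called higher and 2.03% lower. Of 14 heat shock genes, Dnajb1 (-1.26) and Hspa1a (-1.56) fell and Hspb8 (0.57) rose, with a median of -0.06, and the calls of Hspa1a and Hspb8 were lost without any 1 of the 6 arrays (adjusted p 0.054 to 0.18). Of 39 chemokine and cytokine genes 7 fell and none rose, with a median of -0.12. Cxcl1 and Cxcl2, which draw neutrophils, fell by 1.64 and 1.26. Il6 was at 1.24, 1.90 and 1.42 at P1 and at -1.06, 0.01 and -0.09 at P5 (difference -1.90, adjusted p = 0.013). Leaving out P1 back replicate 5 or P5 back replicate 1 ended its call (0.062 and 0.059). The list count was 2 without P1 back replicate 5, 3 without P5 back replicate 1 and 4 without P5 back replicate 3. Ccn1, a matricellular gene that is also induced early, fell by 2.15 (adjusted p = 8.0e-05).

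**Figure D3:**
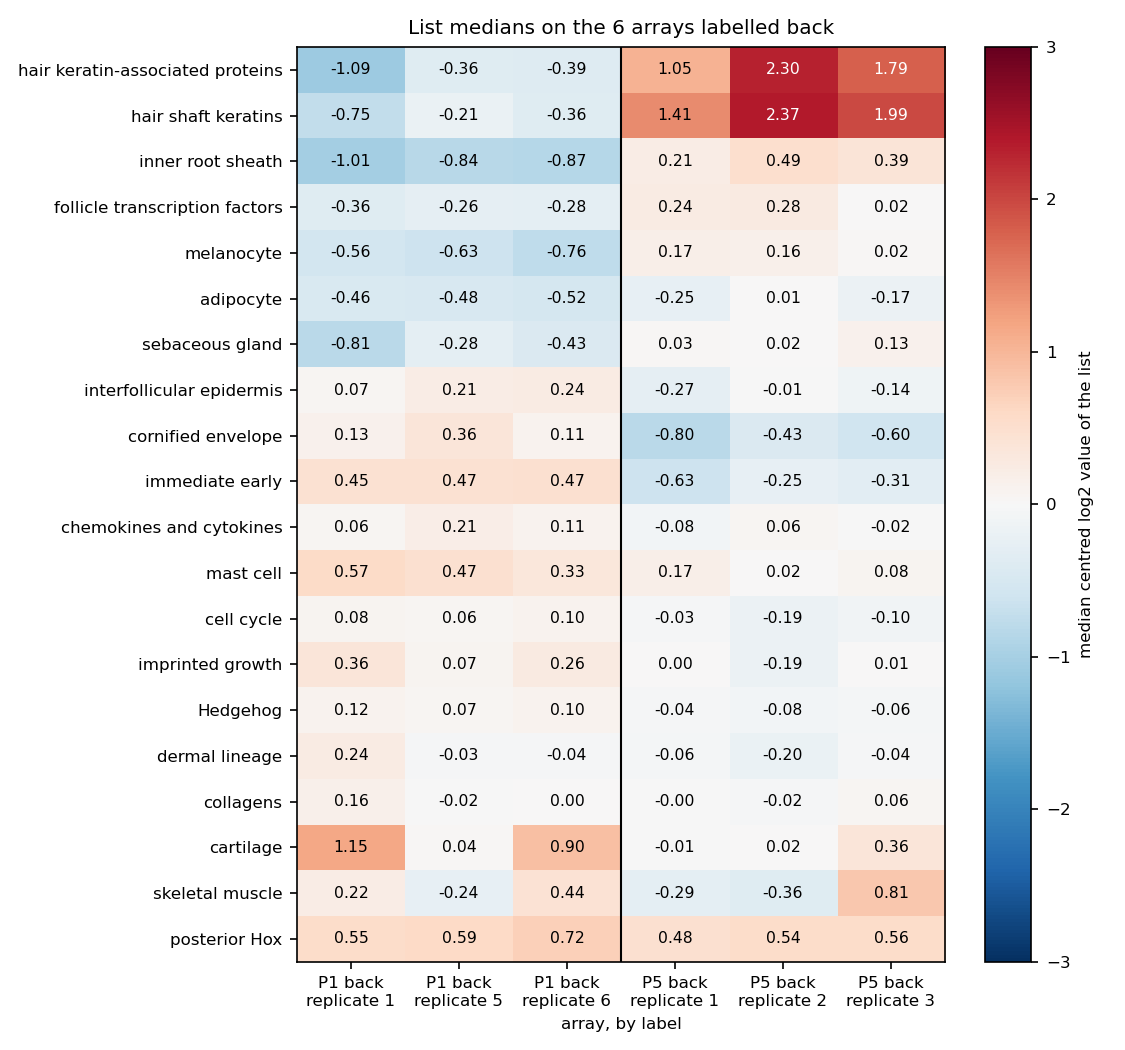
Median centred log2 value (colour and number) of 20 gene lists, in rows, on each of the 6 arrays labelled back, in columns. The hair and inner root sheath lists are below 0 in every P1 array and above 0 in every P5 array, immediate early genes are the reverse, and cartilage genes stand out in P1 replicates 1 and 6.

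Among genes of fat cells the hormones adiponectin and leptin stood out. Of 26 adipocyte genes, 9 rose and 1 fell, with a median of 0.40. For this and the lipid lists below, the shares over all genes were 2.22% called higher and 2.03% lower. Adipoq, which encodes the hormone adiponectin, was at -3.26, -2.75 and -2.78 at P1 and at -0.69, 0.00 and -0.04 at P5, a difference of 2.69 (standard error 0.28, adjusted p = 0.00026), or 6.44-fold. Lep, which encodes leptin, was at -2.02, -1.94 and -2.17 and then at -0.90, -0.04 and -0.40 (difference 1.60, adjusted p = 0.0011). Neither overlapped between the ages, as held for every called gene, and P5 back replicate 1 was again the P5 array nearest to P1. Car3, an abundant enzyme of fat, rose by 1.54, the desaturase Scd1 by 1.03 and the fatty acid carrier Fabp4 by 0.90. Dgat2, a triglyceride synthesis gene, fell by 0.85, but not without any array other than P1 back replicate 1 (adjusted p 0.078 to 0.19). With 1 array left out, 5 to 7 adipocyte genes were higher, the 5 when P1 back replicate 6 or P5 back replicate 2 was the array left out. Of 25 genes of lipid synthesis none rose, and Sc5d of the cholesterol pathway fell by 0.48, a call lost without any array other than P1 back replicate 1 (0.057 to 0.19). Of 9 sebaceous gland genes, Elovl3, a fatty acid elongase, rose by 1.50 and Fa2h, a hydroxylase, by 1.27, the latter not without P1 back replicate 1 or any P5 array (0.053 to 0.10).

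Genes of pigment cells were higher at P5, where 2.22% of all genes were called higher and 2.03% lower. Of 13 melanocyte genes 6 rose and none fell, with a median of 0.61, and in 12 the P5 arrays were above the P1 arrays, as in 14.4% of all genes. Tyrp1, an enzyme of melanin synthesis, was at -1.20, -1.03 and -1.43 at P1 and at 0.50, -0.25 and 0.02 at P5 (difference 1.31, standard error 0.21, adjusted p = 0.0035). Mlana, a melanosome gene, rose by 1.35, Tyr, which encodes tyrosinase, by 1.06 and Ednrb, a receptor of the melanocyte lineage, by 0.80. The count was 4 without P1 back replicates 1 or 6 or P5 back replicate 2. Of 18 Schwann cell genes 2 rose, Mbp and Mal. Mbp, which encodes myelin basic protein, was at -0.73, -1.31 and -0.65 at P1 and at 0.70, 0.89 and 1.66 at P5 (difference 1.98, adjusted p = 0.0022), with 6 of its 8 probe sets in the same direction. Pmp2, another gene of peripheral myelin that was not on the list, rose by 3.05 (adjusted p = 4.5e-05). Mal rose by 0.96, but not without any array other than P5 back replicate 2 (0.064 to 0.15).

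Wnt signalling carries messages between epidermis and dermis through β-catenin. Of 78 genes of the pathway, 3 rose and 6 fell, and the median was -0.02. Over all genes 2.22% were called higher and 2.03% lower, here and for the signals below. The largest change was in Dkk1, a secreted inhibitor of the pathway. It was at 1.31, 1.27 and 1.27 at P1 and at -0.23, -1.26 and -1.01 at P5, a difference of -2.12 (standard error 0.28, adjusted p = 0.0011). Other inhibitors and receptors went in both directions. The coreceptor Lrp4 fell by 1.11 and the ligand Wnt16 by 0.86, and the receptor Fzd1 rose by 0.82. Bambi, a pseudoreceptor that dampens TGFβ signalling and is a Wnt target, rose by 1.40. The inhibitor Dkk2 rose by 0.91 and Sostdc1, an antagonist of Wnt and BMP, fell by 0.68, as did Ctnnbip1, which binds β-catenin (-0.97), and the receptor Lgr6 (-0.60). Lef1, a transcription factor of the pathway, was at -0.07, -0.12 and -0.11 at P1 and at 0.54, 0.52 and 0.34 at P5 (difference 0.56, adjusted p = 0.043).

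These last 5 calls depended on single arrays. Lef1 was lost without any 1 of the 6 (adjusted p 0.072 to 0.17), Dkk2 without any but P5 back replicate 2 (0.063 to 0.15) and Lgr6 without any but P5 back replicate 1 (0.071 to 0.22). Sostdc1 was lost without P1 back replicates 5 or 6 or P5 back replicates 2 or 3 (0.054 to 0.068) and Ctnnbip1 without P1 back replicates 5 or 6 or P5 back replicate 1 (0.058 to 0.060). The genes of the pathway's core did not pass. Ctnnb1, which encodes β-catenin, differed by 0.03 (standard error 0.09), the negative feedback target Axin2 by -0.22 (0.13), the cyclin D1 gene Ccnd1 by 0.23 (0.17) and Tcf7l2 by -0.22 (0.17). Of 23 target genes, the 2 that rose were Bambi and Lef1, and the 3 that fell were Dkk1, Ccn1 and Twist2.

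Among hedgehog genes the changes were downward. The ligand Shh comes from the follicle epithelium and acts on the papilla. Of 15 genes 5 fell and none rose, with a median of -0.18. Gli1, a target and effector, was at 0.24, 0.11 and 0.11 at P1 and at -0.50, -0.86 and -0.77 at P5 (difference -0.86, adjusted p = 0.0063). Ptch1, the receptor and a target, differed by -0.71, Gli2 by -0.75, Shh by -0.58 and Cdon, a coreceptor, by -0.56. Only Gli1 kept its call in each fit with 1 array left out. Ptch1 was lost without P5 back replicates 2 or 3 (adjusted p 0.052 to 0.060), Gli2 and Cdon without any array but P5 back replicate 1 (0.066 to 0.19), and Shh without any of the 6 (0.061 to 0.12), and 1 of the 2 Shh probe sets pointed the other way.

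Among the other signals, 2 of 31 BMP and TGFβ genes were called, Bambi and Fst, which encodes follistatin, an activin and BMP inhibitor (-0.84). Of 35 growth factor genes, Fgf5, the hair length regulator, rose by 0.91, Fgf7 of the papilla by 0.58 and Fgf1 by 0.51, while Pdgfa fell by 0.70 and Vegfa by 0.53. Pdgfa held in all 6 fits. Fgf5 was lost without P1 back replicates 1 or 5 or P5 back replicates 2 or 3 (adjusted p 0.074 to 0.10), Fgf7 without P1 back replicates 5 or 6 or P5 back replicates 1 or 2 (0.064 to 0.12), Fgf1 without any but P1 back replicate 1 (0.053 to 0.091), and Vegfa without P5 back replicate 2 (0.057).

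Several genes of fetal growth were lower at P5. Of 14 regulators 4 fell, where 2.03% of all genes were called lower. Hmga2, a chromatin protein gene of embryonic growth, was at 0.96, 0.85 and 0.92 at P1 and at -0.07, -0.64 and -0.27 at P5 (difference -1.24, standard error 0.14, adjusted p = 0.00041). Sox11, a factor of embryonic mesenchyme, fell by 1.20, the RNA-binding protein gene Igf2bp1 by 0.98 and Igf2bp3 by 0.44. All probe sets of Hmga2, Sox11 and Igf2bp1 pointed the same way. Of 23 imprinted growth genes 4 fell and none rose, with a median of -0.35 and 20 values below 0. Peg10, a paternally expressed gene, fell by 1.41 and Slc38a4, an amino acid transporter gene, by 1.39, and Asb4 differed by -0.68 and Usp29 by -0.66. Dlk1 (-0.93, standard error 0.31, adjusted p = 0.14) and Igf2 (-0.62, 0.27, adjusted p = 0.33) did not pass. Calls were lost for Igf2bp3 without any of the 6 arrays (0.077 to 0.15), for Asb4 without any but P5 back replicate 1 (0.052 to 0.18) and for Usp29 without P1 back replicates 1 or 6 or P5 back replicates 1 or 2 (0.092 to 0.16). The imprinted list's count was 2 without P1 back replicates 1 or 6 or P5 back replicate 2.

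None of 59 cell cycle genes was called by limma in either direction, in the full fit or with any 1 of the 6 arrays left out, and 13 had an unadjusted p under 0.05, all lower. Their values were nonetheless mostly on one side, 52 below 0 and 32 with all P5 arrays below all P1 arrays (13.6% of all genes), and the median was small at -0.20. Differences ran from -0.48 to 0.19, the last in Mki67, the proliferation marker. With only the 6 arrays labelled back in the fit 7 were called lower, and with array weights 20. Leaving out P5 tail replicate 2 or 4, which share the fit, gave 3 and 1 called lower.

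Of 27 dermal lineage genes 2 rose and 1 fell, where 2.22% of all genes were called higher and 2.03% lower, with a median of -0.13. Fap, which encodes fibroblast activation protein, was at 0.17, -0.25 and -0.15 at P1 and at 0.70, 0.73 and 0.79 at P5 (difference 0.82, adjusted p = 0.0011). Cd36, a fatty acid transporter of the lower dermis and fat, rose by 0.75, and Twist2, a factor of dermal fibroblasts, fell by 0.87. Cd36 was lost without P1 back replicates 5 or 6 or P5 back replicate 2 (adjusted p 0.050 to 0.062) and Twist2 without any array but P5 back replicate 1 (0.054 to 0.10). Of the markers the study uses, Lrig1 was at -0.10, -0.12 and -0.19 at P1 and at -0.38, -0.70 and -0.65 at P5. Its difference of -0.44 (standard error 0.12) missed the threshold at an adjusted p of 0.055, so it was not called. All P5 arrays were below all P1 arrays, as for 13.6% of all genes. Without P5 back replicate 1 the adjusted p was 0.038, but that is only 1 of 6 such fits. By probe set, Lrig1 differed by -0.56 (limma adjusted p = 0.044, over all probe sets), -0.55 (0.078) and -0.21 (0.77). The call thus depended on whether probe sets were averaged. Dpp4 differed by 0.28 (standard error 0.12, adjusted p = 0.31), Prdm1 by 0.16 (0.13, 0.78) and Pdgfra by -0.44 (0.16, 0.21). Itga8, which the study takes to mark papillary fibroblasts, dermal papilla and arrector muscle at P2, differed by -0.53 (0.20, 0.22).

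Of 26 collagen genes 1 rose and 2 fell, with a median of 0.02. Over all genes 2.22% were called higher and 2.03% lower, here and for the matrix lists below. Col1a1, the main dermal collagen, differed by 0.10 (standard error 0.08, adjusted p = 0.77). Col26a1 fell by 0.89, Col17a1 of basal epidermis is described above, and Col8a1 rose by 0.41, which was lost without any of the 6 arrays (adjusted p 0.10 to 0.20). None of 19 collagen-modifying genes was called by limma (5 lower at an unadjusted p under 0.05), but 2 were lower without P1 back replicate 5. Of 27 genes of matrix turnover 4 fell and none rose. Mmp11, a stromal protease, fell by 1.23, and Plau (-0.83), Adamts4 (-0.64) and Adamts1 (-0.59) were also called. Tnc, which encodes tenascin C of remodelling matrix, was at 0.42, 0.42 and 0.32 at P1 and at -0.37, -0.69 and -0.43 at P5 (difference -0.89, adjusted p = 0.0026). Has2, the hyaluronan synthase gene, fell by 0.56 as the single call of 20 proteoglycan genes, and Fbln1 by 0.44 as that of 15 elastic fibre genes. Calls were lost for Fbln1 and Adamts1 without any of the 6 arrays (0.054 to 0.21), for Plau without P1 back replicate 5 or P5 back replicates 1 or 2 (0.052 to 0.069), for Adamts4 without P5 back replicate 2 (0.055) and for Has2 without P1 back replicates 1 or 6 or P5 back replicate 2 (0.060 to 0.080).

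Of the lists of blood, immune and vessel cells described here, none had more than 2 calls, where 4.25% of all genes were called in either direction. None of 23 dendritic and T cell, 21 interferon response and 12 complement genes was called by limma, and at an unadjusted p under 0.05 there were 0, 0 and 3. Of 16 mast cell genes, Hdc, which makes histamine, fell by 1.10 and the tryptase gene Tpsb2 by 0.75, with a list median of -0.33. Single genes were called among 29 macrophage (F13a1, 0.59), 20 erythroid (Bpgm, 0.63) and 18 pericyte and smooth muscle genes (Acta2, 0.42), and of 29 endothelial genes Sox18 (-0.95) and Selp (-0.91) fell. None of these 7 calls held throughout. Hdc was at 0.052 without P1 back replicate 1 and Selp at 0.0503 without P5 back replicate 3. Sox18 and Acta2 were lost without any of the 6 arrays (0.052 to 0.18), Tpsb2 without any but P1 back replicate 5 (0.057 to 0.16), Bpgm without any but P5 back replicate 1 (0.053 to 0.097), and F13a1 without P1 back replicates 1 or 5 or P5 back replicates 2 or 3 (0.065 to 0.084). Sox18 was also on the dermal papilla list. There 2 of 30 genes rose and 3 fell, against 4.25% of all genes called in either direction. Outside these groups, Adh1, an alcohol and retinol dehydrogenase, was at 1.69, 2.21 and 2.25 at P1 and at -0.46, 0.01 and -0.08 at P5 (difference -2.23, adjusted p = 0.00062), and Cyp1b1, a cytochrome P450 gene, rose by 1.16.

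The arrays labelled tail gave the same comparison. Whether back and tail skin came from the same mice is not given in the sources used here. In them 964 genes (5.30%) differed with age, and 139 were called in both with the same sign, 100 up and 39 down, which is 18.0% of the 773 and 14.4% of the 964. A further 47 were called with opposite signs. Across the 18193 genes the age differences under the 2 labels had a Pearson correlation of 0.22 and a Spearman correlation of 0.13, as a description, since genes are not independent replicates. By a direct test of the difference between the age changes, 522 genes (2.87%) differed, 171 with the back change above the tail change (0.940%) and 351 with it below (1.93%). Of the 773 genes, 253 were among them, 82 of those that rose and 171 of those that fell.

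Genes of the hair fibre rose under both labels, in different numbers. Of 12 shaft keratins 10 were called higher under the back label and 7 under the tail label, and 1 (Krt32, 2.40 and 0.95) had a higher age change under the back label. Of 13 inner root sheath genes 11 and 2 were called higher, with list medians of 1.40 and 0.42, and the age change of 3 keratins of the sheath was higher under the back label (Krt25, 0.94 and 0.10, Krt28, 1.40 and 0.30, and Krt73, 1.29 and 0.22). Krtap19-5 differed by 4.96 under the back label and 4.48 under the tail label, and no keratin-associated protein gene had a different age change under the labels, although 31 of 35 were called in the one and 18 in the other. Dkk1 fell by 2.12 and 2.07, Gli1 by 0.86 and 0.80, Peg10 by 1.41 and 1.60 and Sox11 by 1.20 and 1.69. None of these 4 had a different change. The immediate early and epidermal genes parted instead. Of 25 immediate early genes 15 had a lower age change in arrays labelled back, among them Atf3 at -2.86 and 0.13, and so did 8 of 26 interfollicular and 7 of 36 envelope genes, none in the other direction. The median of the immediate early list was -0.95 under the back label and 0.12 under the tail label. At P1 back and tail skin were separated in different solutions, and those used at P5 are not given. Site and solution therefore cannot be told apart here.

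Adipocyte genes also parted. The age change of 10 of 26 was higher in arrays labelled back and that of 3 was lower, with list medians of 0.40 and -0.20. Adipoq differed by 2.69 and -1.75 and Car3 by 1.54 and -2.28, in opposite directions, while Scd1 rose by 1.03 and 1.61. Of 9 sebaceous genes 5 had a lower age change in arrays labelled back, where the list median was 0.45 against 2.01. Spink12 rose by 5.22 under the back label and differed by 0.56 (adjusted p = 0.082) under the tail label.

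**Figure D4:**
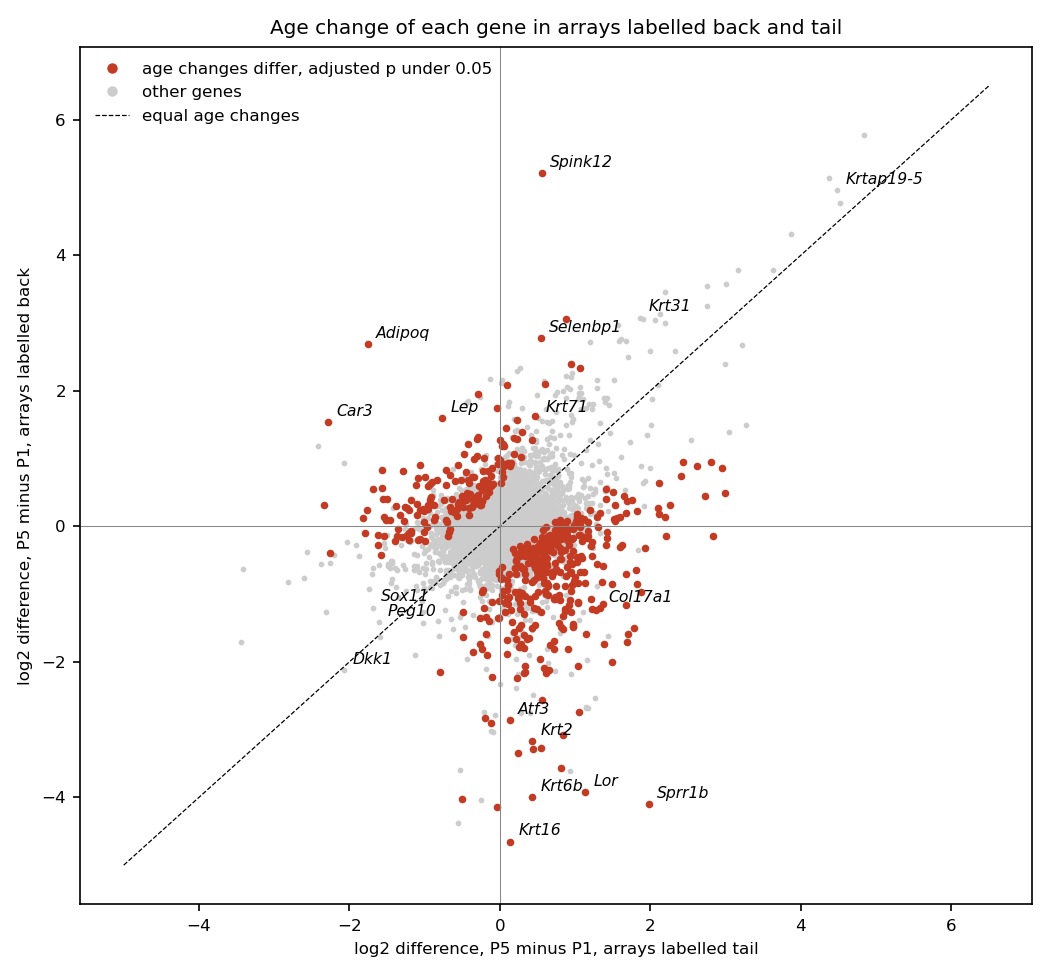
Age change (log2 difference, P5 minus P1) of 18193 genes in arrays labelled tail (horizontal) and labelled back (vertical), 3 arrays per age and label. Red points are the 522 genes whose age changes differed at a limma adjusted p under 0.05, and the dashed line marks equal change. Krtap19-5 and Dkk1 lie near the line, Spink12 and Adipoq far above it, and Krt16, Atf3 and Sprr1b far below.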

How the data were processed

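RNA from mouse dermis was measured on 12 1-colour arrays in 4 groups of 3, taken from the sample titles. RMA in GeneSpring was used by the authors, and the deposited values were read as log2, the base RMA gives, which the table does not name. Each probe set was found to be centred, with a median over the 12 arrays of 0 within 1e-06. The centring is not described in the sources used here, and it removed levels, so the methods' filter on the 20% of genes with lowest expression could not be applied and no signal over background can be given. With 3 arrays per group, their number limits the precision.

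Values were used as they are. The 64 control probe sets were dropped and 45037 tested. Of these 34945 carried 1 gene symbol in the platform annotation, 932 several and 9160 none, and 34741 matched RefSeq (GRCm38.p6) by gene identifier with no symbol changed. Values of 1-symbol probe sets were averaged into 18193 genes, 9010 with more than 1 probe set. Ly6a and Tcf7 had no such probe set. One limma fit (version 3.58.1, R 4.3.3) held the 4 groups and all 12 arrays, with Benjamini-Hochberg adjustment and a threshold of 0.05. On simulated data with 45037 probe sets and each probe set's spread over the 4 groups, 8 of 50 probe sets changed by 0.5 were called, 38 of 50 changed by 1 and all 50 changed by 2, and 14 of 44837 unchanged ones.

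The comparison and the 48 lists (1148 of 1282 entries measured) were chosen with earlier results of these data known. The text names genes among the 15 largest calls in each direction, the 6 largest differences of each list, the 10 largest calls of the difference between back and tail in each direction, the study's markers and Hox genes. Those named after their values were seen are Cldn8, Irx5, Sprr1a, Col1a1, Dgat2, Krtap8-1, Sox6, Jun, Dusp1, Fzd1, Lgr6, Fgf1, Msx2, Nr4a3, Krt25, Krt28, Krt32 and Krt73. Promoter motifs planned for called cell cycle genes were not described, since no such gene was called. The CRE and CArG box motifs, searched first in promoters of called immediate early genes, were in 2 and 1 of 13 (1.79% and 1.63% of all promoters). Alternatives were other centring, robust variances, array weights, a replicate block and the 6 arrays labelled back alone. Others left out arrays rich in cartilage genes, single arrays or probe sets of shared sequence, or used an unpaired t-test.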

Additional observations from a re-analysis of the deposited data

Results flagged for a closer look

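These results were picked out because the change with age differed between the arrays labelled back and labelled tail, by a limma test of that difference (adjusted p under 0.05, 3 arrays per age and label). Values are the age change under the back label minus that under the tail label, on the log2 scale, and 522 genes passed in all. Among genes of the epidermis they were Krt16 (-4.79), Krt6b (-4.42), Krt2 (-3.61), Krt14 (-1.76), Lor (-5.05), Sprr1b (-6.08), Sprr2d (-3.53), Serpinb12 (-4.10), Alox12b (-3.73) and Col17a1 (-2.53). Among immediate early and related genes they were Atf3 (-2.99), Fosb (-2.49), Fosl1 (-1.98), Fos (-2.03), Jun (-1.25), Egr1 (-1.22), Nr4a1 (-1.50), Btg2 (-2.01), Dusp1 (-1.42), Dnajb1 (-1.33) and Ccn1 (-1.36). Genes of fat cells with a more positive change under the back label were Adipoq (4.44), Lep (2.36), Car3 (3.82), Fabp4 (1.96) and Cd36 (1.41), and genes of melanocytes and myelin were Tyrp1 (1.60), Tyr (1.54), Ednrb (1.25) and Pmp2 (2.18).

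Genes of signalling and of follicle or mesenchymal control in this set were Fst (-1.43), Sostdc1 (-1.79), Ctnnbip1 (-1.17), Lgr6 (-1.49), Fgf1 (0.66), Irx5 (-1.62) and Sox6 (-1.02). Genes of fibroblasts, matrix and growth were Lrig1 (-0.77), Fap (0.97), Mmp11 (-1.37), Slc38a4 (-1.25) and Igf2bp1 (-0.74). Among keratins of the hair and its sheath they were Krt32 (1.44), Krt25 (0.83), Krt28 (1.10) and Krt73 (1.07). The others were Spink12 (4.66), Selenbp1 (2.24), F13a1 (1.55), Adh1 (-2.13) and Cldn8 (1.27). Lrig1 was not called with age under either label, with adjusted p-values of 0.055 and 0.13. The count of 522 was 239 to 731 when 1 of the 12 arrays was left out, with 272 and 239 without P1 back replicates 5 and 6, 316, 316 and 334 without P5 back replicates 1, 2 and 3, and 272 without P1 tail replicate 6. At P1 back and tail skin had been separated in different solutions, and those used at P5 are not given. Which of site and solution these differences follow cannot be told apart.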

How the results depend on the processing

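All 129 called genes named here kept their call when each array was centred on its median, with array weights and with the 6 arrays labelled back alone. Robust variances ended 3 calls (Flg, Krt1 and Hspa1a, adjusted p 0.086, 0.056 and 0.060), and leaving out probe sets of shared sequence ended 10 (Igf2bp3, Col26a1, Col8a1, Fbln1, Ctnnbip1, Gli2, Vegfa, Fabp4, Acta2 and Mal, adjusted p 0.052 to 0.59) and left no value for another 6 (Col17a1, Fa2h, Hdc, Krt10, Krt82 and Mbp). Leaving out 1 of the 6 arrays kept 80 in every case, and without the 3 arrays rich in cartilage and muscle genes, where P1 rests on 1 array assumed to vary like the other groups, 8 kept their call. Signs are no sign of stability here, since the ages do not overlap in any called gene.

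The counts moved more. Against 1035 probe sets, 773 genes and 189 called list genes, array weights gave 3631, 2136 and 356, the 6 arrays alone gave 2496, 1526 and 301, and leaving out the 3 arrays gave 25, 17 and 5. The last also took the 522 genes of the back and tail comparison to 44. With 1 array left out the counts were 469 to 730 probe sets, 379 to 529 genes, 120 to 145 list genes and, over all 12 arrays, 239 to 731 genes of the back and tail comparison. The methods name an unpaired t-test for the study's statistics in general, and no test for the arrays. Applied here, that t-test gave 7366 probe sets at an unadjusted p under 0.05 and 32 after Benjamini-Hochberg adjustment.

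No paired analysis was possible because the arrays labelled P1 and P5 back share only replicate number 1, which names different mice of different ages. Between back and tail arrays of 1 age and number, deviations correlated at 0.23, 0.01, 0.21 and -0.05, so the numbers were not taken to pair samples. A replicate block within age gave 1069 probe sets, 798 genes, 192 list genes and 679 genes of the back and tail comparison. Signal over background could not be examined, as the values are centred.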
